A study of Arabidopsis thaliana with 9 samples.

Results

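The comparison described here isolated oxygen at an equal low pressure. Of the 9 arrays in the series, 6 belonged to it: 3 arrays of Arabidopsis thaliana roots held at 50 kPa, and 3 of roots held at 50 kPa with oxygen added until its partial pressure was 21 kPa, a treatment named 50 kPa/NormOx. Members were chosen by the treatment named in the sample titles, and no measured value entered the choice. The remaining 3 arrays, of roots at the ambient pressure of 97 kPa, are given as a reference level. All plants were wild type of the ecotype Wassilewskija (WS), grown in the light on plates and 5 d old when they entered the chambers, where they stayed for 24 h. Carbon dioxide was kept at 0.05 kPa in all 3 groups, and nitrogen made up the balance of the gas where oxygen was set. No oxygen was added at 50 kPa, and the labels give no oxygen pressure for that group. Each array carried RNA from dissected roots of about 12 plants of 1 plate, pooled in 1 tube. Each tube of a group was drawn from another chamber, so that a group stood for 3 chambers and not for single plants. Whole roots were measured, so a change in the number of cells of a type and a change in RNA per cell cannot be told apart.

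Plants sense low oxygen through group VII ethylene response factors, transcription factors that plant cysteine oxidases (PCO) mark for degradation as long as oxygen is present. When oxygen falls these factors persist and switch on a core set of genes, which channel sucrose into glycolysis and pyruvate into ethanol fermentation so that sugar breakdown can go on with less respiration. Roots meet such conditions in waterlogged soil, and the same core set responds in root and shoot cells.

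Probe set levels are MAS5 signals, an intensity on a linear scale, and differences are log2 differences of 50 kPa minus 50 kPa/NormOx with the standard error (SE) of the fit. Calls were made in limma where the p adjusted by the method of Benjamini and Hochberg was under 0.05. The 6 arrays had near-equal median signals of 196.1 to 205.9. Over the tested probe sets the log2 signals of the 3 arrays at 50 kPa/NormOx correlated with each other at 0.944 to 0.947. The 50 kPa/NormOx replicate 2 correlated at 0.954 to 0.960 with the arrays at 50 kPa, above its values of 0.944 and 0.946 within its own group, while the corresponding values with the arrays at 50 kPa were 0.941 to 0.949 for replicate 1 and 0.938 to 0.954 for replicate 3. No array left out changed the number of calls as much as replicate 2 did, and values without it are given beside the results below that it moved by over 1.5 times or whose call it changed. The ratio of the 3′ to the 5′ probe set of the GAPDH control is a sign of RNA integrity and labelling. It ran from 32.3 to 69.3 at 50 kPa, from 55.9 to 108.3 at 50 kPa/NormOx and from 58.0 to 78.5 at 97 kPa. The 3′ probe set thus read far above the 5′ one in every array, most so in 50 kPa/NormOx replicate 1. The part of this 3′ excess in the results was not tested. Of the 16 root markers on the list only EXP7, an expansin of root hair cells, had a named and tested probe set. Its signal was 206.4 to 383.8 at 50 kPa and 201.5 to 465.6 at 50 kPa/NormOx.

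Few probe sets were called between roots at 50 kPa with and without added oxygen. The number of arrays limits the calls, so their count does not measure how far the transcriptomes differed. An unadjusted p under 0.05 in limma was reached by 1433 of the tested probe sets (9.06%). Of 15818 nuclear probe sets tested, 13 were called (0.0822%). Of these, 12 were higher without the added oxygen (0.0759%) and 1 was lower (0.00632%). All 12 that were higher belonged to the list of core hypoxia genes. Of the 12, 4 were named through the platform annotation and 8 only through gene tables of the study for 10 d plants. Those tables hold genes that changed in those plants under related atmospheres, so responding genes were more likely to be named. Over all tested probe sets the median log2 difference was -0.02, and 47.7% of the differences lay above 0. At the threshold used in the methods of the study, an unadjusted p under 0.01 with at least a 2-fold difference, 70 probe sets passed (0.443%), 46 higher and 24 lower at 50 kPa (50 and 16 with quantile normalization). The excess of higher ones depended on the arrays. There were 59 higher and 66 lower without 50 kPa replicate 1, 34 and 33 without 50 kPa replicate 2, and 42 and 34 without 50 kPa replicate 3. Without 50 kPa/NormOx replicate 1 there were 60 and 18, without its replicate 2 155 and 46, and without its replicate 3 57 and 14. The groups did not overlap for 12.5% of all tested probe sets. Of these 1975, 760 were higher at 50 kPa and most were lower. Of the 46 higher ones 31 named 1 gene and 19 of these were in the core hypoxia list. The groups did not overlap for 39 of the 46, and 29 of these 39 named 1 gene. Among the 29, the core hypoxia list held all 10 of the largest rises. When 50 kPa/NormOx replicate 2 was left out, the calls numbered 94 (0.594%), with 80 higher (0.506%) and 14 lower at 50 kPa, and all 13 were among them.

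**Figure D1:**
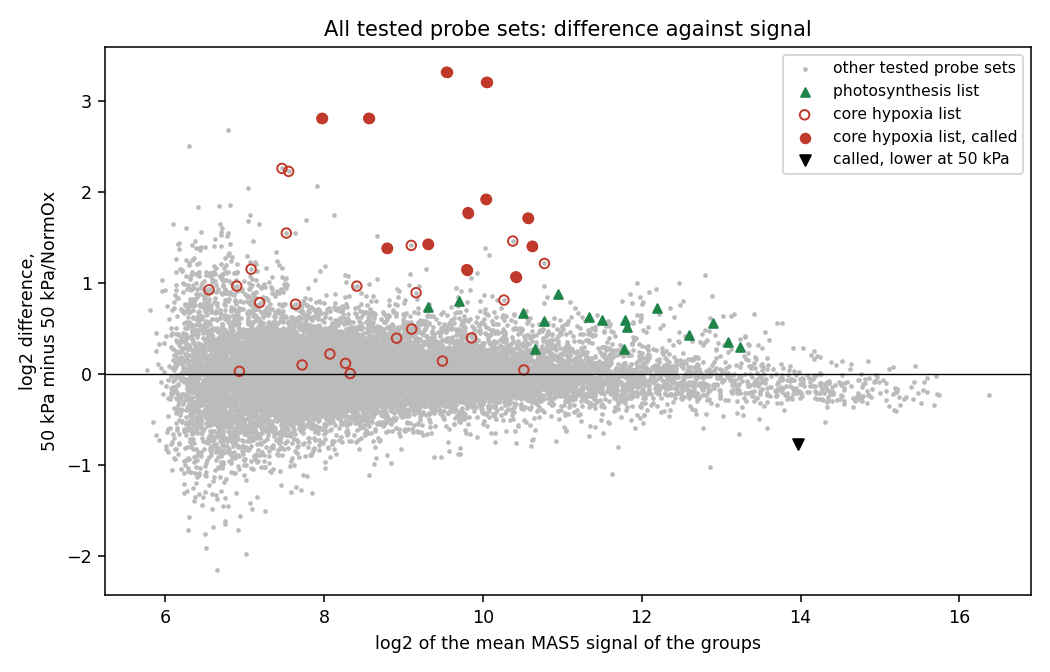
The log2 difference between 50 kPa and 50 kPa/NormOx (y axis) is plotted against the log2 of the mean signal of the groups (x axis) for the 15818 tested probe sets, 1 point each. The 12 called members of the core hypoxia list lie above 1, the called probe set that was lower lies at -0.77, and the photosynthesis members lie between 0.27 and 0.88 at high signals.

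Both cysteine oxidases with a named probe set, the enzymes that start the oxygen-dependent removal of the group VII factors, rose without added oxygen. PCO1 (AT5G15120) had signals of 853.7, 836.7 and 1079 in the 3 arrays at 50 kPa and of 398.3, 296.5 and 340.4 at 50 kPa/NormOx. PCO2 (AT5G39890) had signals of 759.8, 519.9 and 641.0 at 50 kPa and of 293.0, 249.2 and 198.4 at 50 kPa/NormOx. The groups did not overlap for either gene, and every array at 50 kPa was also above the 97 kPa arrays, which lay at 239.1 to 314.5 for PCO1 and at 281.5 to 335.9 for PCO2. The log2 differences were 1.42 ± 0.18 (SE; adjusted p = 0.00273) and 1.38 ± 0.20 (adjusted p = 0.00923). PCO2 lost its call when 50 kPa replicate 1 or 3 or 50 kPa/NormOx replicate 3 was left out.

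Of 18 oxygen sensing entries 5 were tested, and only 1 of these, HRA1, was named through the platform annotation. The transcription factors among the 5, and LBD41 of the core hypoxia list, gave differences above 0 that did not pass the test. LBD41 (AT3G02550), a LOB-domain factor, had signals of 654.1, 649.4 and 1073 at 50 kPa and of 428.7, 210.6 and 270.3 at 50 kPa/NormOx, a log2 difference of 1.41 ± 0.28 (adjusted p = 0.106). HRE1 (AT1G72360), a group VII factor that is itself oxygen responsive, had signals of 590.7, 524.8 and 1158 against 361.2, 421.4 and 372.0, with a log2 difference of 0.89 ± 0.24 (adjusted p = 0.326) that became 0.54 without 50 kPa replicate 3. In both cases the groups did not overlap and 50 kPa replicate 3 was the highest array. HRE2 (AT2G47520), its closest relative, was dim, with 125.0, 150.1 and 138.9 against 47.0, 67.1 and 109.5, a log2 difference of 0.97 ± 0.50 (adjusted p = 0.588). HRA1 (AT3G10040), a trihelix factor that restrains the group VII factor RAP2.12, overlapped between the groups. Its signals of 78.3, 100.7 and 237.6 at 50 kPa stood against 163.8, 12.6 and 122.8, and its log2 difference of 0.96 ± 0.77 (adjusted p = 0.750) turned to -0.20 without 50 kPa/NormOx replicate 2. No probe set was named for RAP2.12, RAP2.2 or RAP2.3, the constitutively expressed factors of the group.

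Both sucrose synthases with a named probe set rose, among 4 of 13 sucrose cleavage entries that were tested. Sucrose synthase cleaves sucrose without spending ATP and is the route of sucrose entry that oxygen-limited tissues are known to favour. SUS4 (AT3G43190) had signals of 1255, 1388 and 1526 at 50 kPa and of 456.4, 393.8 and 374.7 at 50 kPa/NormOx, with a log2 difference of 1.77 ± 0.16 (adjusted p = 7.56e-05). SUS1 (AT5G20830) had 1157, 1309 and 1207 against 581.2, 566.5 and 516.7, with a log2 difference of 1.14 ± 0.14 (adjusted p = 0.00245). The arrays within each group were close for both genes and the groups lay well apart. For SUS1 the 97 kPa arrays, at 741.5, 796.8 and 928.5, lay between the groups and overlapped neither, while for SUS4 they overlapped 50 kPa/NormOx at 397.8 to 492.5. AT1G62660, a vacuolar invertase, which cleaves sucrose by the other route, had 2173, 1616 and 1518 against 2138, 2047 and 3129, and its log2 difference of -0.45 ± 0.18 did not pass (adjusted p = 0.484) and was -0.26 without 50 kPa/NormOx replicate 3.

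Among the 4 fermentation genes tested, of 12 listed, PDC1 rose and ADH1 did not pass the test. PDC1 (AT4G33070), a pyruvate decarboxylase that commits pyruvate to ethanol, had signals of 494.0, 369.9 and 443.1 at 50 kPa and of 57.8, 99.7 and 41.4 at 50 kPa/NormOx, a log2 difference of 2.80 ± 0.42 or 6.98-fold (adjusted p = 0.00987). Its arrays at 50 kPa/NormOx covered nearly the same range as those at 97 kPa, 47.2 to 127.4. The call was lost without any 1 of the arrays at 50 kPa and without 50 kPa/NormOx replicate 3, and over all alternatives the adjusted p reached 0.156. PDC2 (AT5G54960), the second isoform on the list, had 263.3, 396.4 and 303.6 against 269.8, 290.3 and 404.8, a log2 difference of 0.00 ± 0.23 (adjusted p = 0.999). ADH1 (AT1G77120), the alcohol dehydrogenase that completes the pathway, was dim, with 103.0, 135.0 and 129.2 against 53.8, 61.9 and 79.6. Its groups did not overlap, but at a log2 difference of 0.92 ± 0.39 it did not pass (adjusted p = 0.506). LDH1 (AT4G17260), which makes lactate instead, had 578.1, 369.8 and 469.9 against 271.5, 374.2 and 349.7, with a log2 difference of 0.50 ± 0.21 (adjusted p = 0.499).

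Of 26 glycolysis entries 7 were tested. None was called in limma, 1 had an unadjusted p under 0.05, and the median log2 difference was -0.01. The smallest p was that of GAPC2 (AT1G13440), a cytosolic glyceraldehyde-3-phosphate dehydrogenase. Its signals of 10303, 13368 and 10911 at 50 kPa stood above 9109, 9824 and 8528, a log2 difference of 0.33 ± 0.12 (adjusted p = 0.440) that became 0.21 without 50 kPa replicate 2.

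The remaining called genes with a known role lie outside sugar breakdown. AHB1 (AT2G16060), a class 1 hemoglobin that scavenges nitric oxide, had the smallest p of all tested probe sets. Its signals were 2208, 2149 and 2620 at 50 kPa and 736.7, 762.0 and 634.6 at 50 kPa/NormOx, a log2 difference of 1.71 ± 0.15 (adjusted p = 7.56e-05). HRU1 (AT3G03270), a universal stress protein linked to hydrogen peroxide production under low oxygen, had 2595, 2220 and 2040 against 879.9, 943.3 and 774.8 (1.40 ± 0.14, adjusted p = 0.000154). For both genes the 97 kPa arrays lay above those at 50 kPa/NormOx without overlap, at 825.3 to 1035 for AHB1 and at 969.6 to 998.4 for HRU1, and far below those at 50 kPa. A further hemoglobin, GLB3 (AT4G32690), did not pass, at 0.32 ± 0.14 on the log2 scale (adjusted p = 0.528).

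ACO1 (AT2G19590), an oxidase of the last step of ethylene synthesis, which itself uses oxygen, had 1700, 1607 and 2239 at 50 kPa and 1000, 872.9 and 768.7 at 50 kPa/NormOx. Its log2 difference was 1.06 ± 0.18 (adjusted p = 0.0291). SAD6 (AT1G43800), an acyl carrier protein desaturase, an enzyme class that also consumes oxygen, showed the widest difference of all called probe sets. Its signals were 1491, 1323 and 1204 at 50 kPa against 218.3, 65.9 and 169.3, a log2 difference of 3.31 ± 0.44 or 9.92-fold (adjusted p = 0.00313). ACO1 lost its call without 97 kPa replicate 1, 50 kPa replicate 1, 50 kPa replicate 3 or 50 kPa/NormOx replicate 3, whereas SAD6 kept its call with any 1 array left out.

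The other 3 called genes have no well-established function. AT4G33560, annotated as a wound-responsive family protein, had signals of 1745, 1726 and 2185 at 50 kPa and of 378.0, 184.6 and 121.8 at 50 kPa/NormOx, with a log2 difference of 3.20 ± 0.31 or 9.19-fold (adjusted p = 0.000136). AT4G27450 had 1525, 1276 and 2175 against 562.0, 295.2 and 477.0 (1.91 ± 0.24, adjusted p = 0.0023). AT1G33055 had 476.8, 317.9 and 1219 against 110.9, 85.1 and 57.6 (2.80 ± 0.49, adjusted p = 0.0456). All 3 separated the groups, but AT1G33055 rested on a wide spread at 50 kPa, where replicate 3 was the highest, and it lost its call without 97 kPa replicate 3, 50 kPa replicate 1, 50 kPa replicate 3, 50 kPa/NormOx replicate 1 or 50 kPa/NormOx replicate 3.

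**Figure D2:**
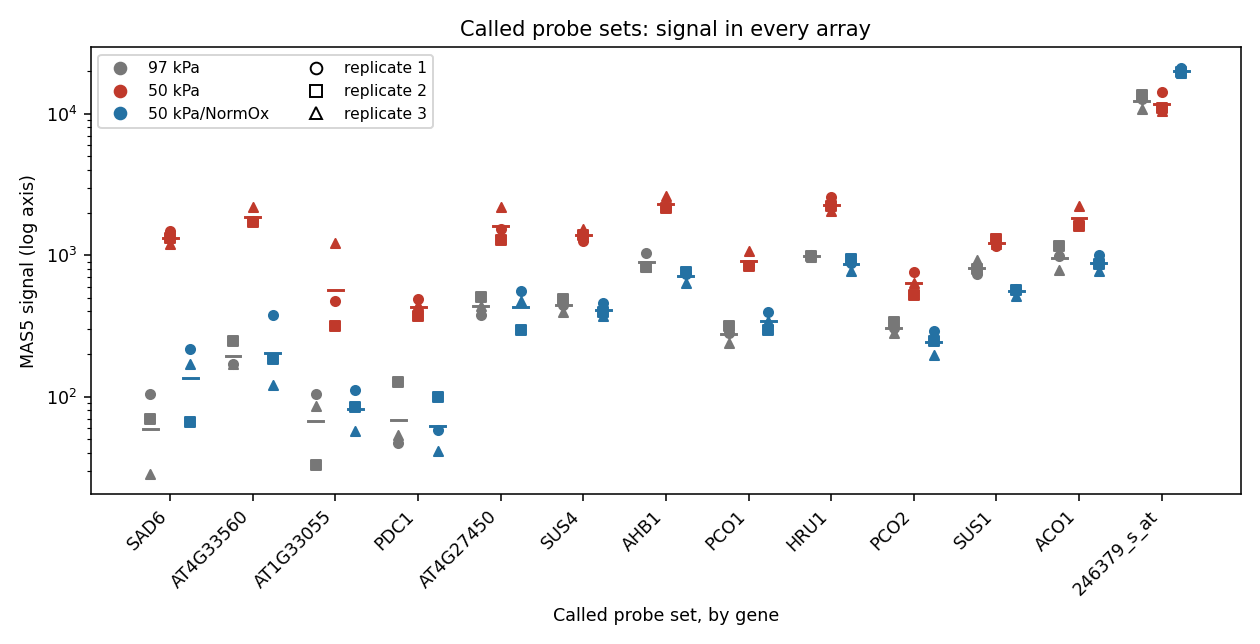
Signal (y axis, log scale) of the 13 called probe sets (x axis, ordered by log2 difference) in each of the 9 arrays, with colours for the groups, symbols for the replicate numbers and bars for the geometric means. For 12 probe sets the 3 arrays at 50 kPa lie above all others, and for 246379_s_at the 50 kPa/NormOx arrays lie above the other groups.

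The core hypoxia list was examined as a whole, member by member. Of its 49 entries, 40 had a named probe set on the array, 36 were tested and 4 (PEX3, AT4G24110, AT5G45960 and SRO5) were too dim. Among the 24 tested members named through the platform annotation, 4 were called, all higher, and 20 were not. Their median log2 difference was 0.88, beside -0.02 over all tested probe sets, and 23 of the 24 lay above 0. In 13 of the 24 the groups did not overlap, beside 4.8% of all tested probe sets that were higher at 50 kPa without overlap. The other 12 tested members took their names from gene tables of the study for 10 d plants, which hold genes that changed in those plants under related atmospheres and so are not independent of the response. Of these, 8 were called higher. Over all 36 the median was 1.1, and without 50 kPa/NormOx replicate 2 it was 1.07.

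Several uncalled members of the list had differences within the range of the called ones. AT5G10040 had signals of 332.9, 215.7 and 308.2 at 50 kPa and of 101.2, 25.0 and 80.6 at 50 kPa/NormOx (2.25 ± 0.50, adjusted p = 0.239). AT1G19530 had 170.1, 243.5 and 488.4 against 130.9, 20.9 and 73.0 (2.22 ± 0.53, adjusted p = 0.292). STR17 (AT2G17850), a sulfurtransferase, had 328.8, 252.8 and 223.9 against 119.3, 47.9 and 131.6 (1.54 ± 0.37, adjusted p = 0.292). All 3 separated the groups, and in all 3 the lowest array was 50 kPa/NormOx replicate 2, without which the log2 differences were 1.64, 1.48 and 1.08 and none was called. AT4G10270, a further wound-responsive family protein, and AT5G66985 were bright, with 1901, 1230 and 2711 against 1047, 511.8 and 573.7 for the first and 2218, 1636 and 3562 against 855.5, 934.3 and 1308 for the second. Their log2 differences of 1.46 ± 0.28 and 1.21 ± 0.23 lay just outside the threshold (adjusted p = 0.0857 for both). ARD3 (AT2G26400), an enzyme of methionine salvage, differed by less than any called member. It had 248.6, 291.3 and 210.7 against 167.6, 112.1 and 166.7, a log2 difference of 0.76 ± 0.26 (adjusted p = 0.432). The 6 members with the smallest differences, PDC2 among them, lay between 0.00 and 0.14 on the log2 scale.

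**Figure D3:**
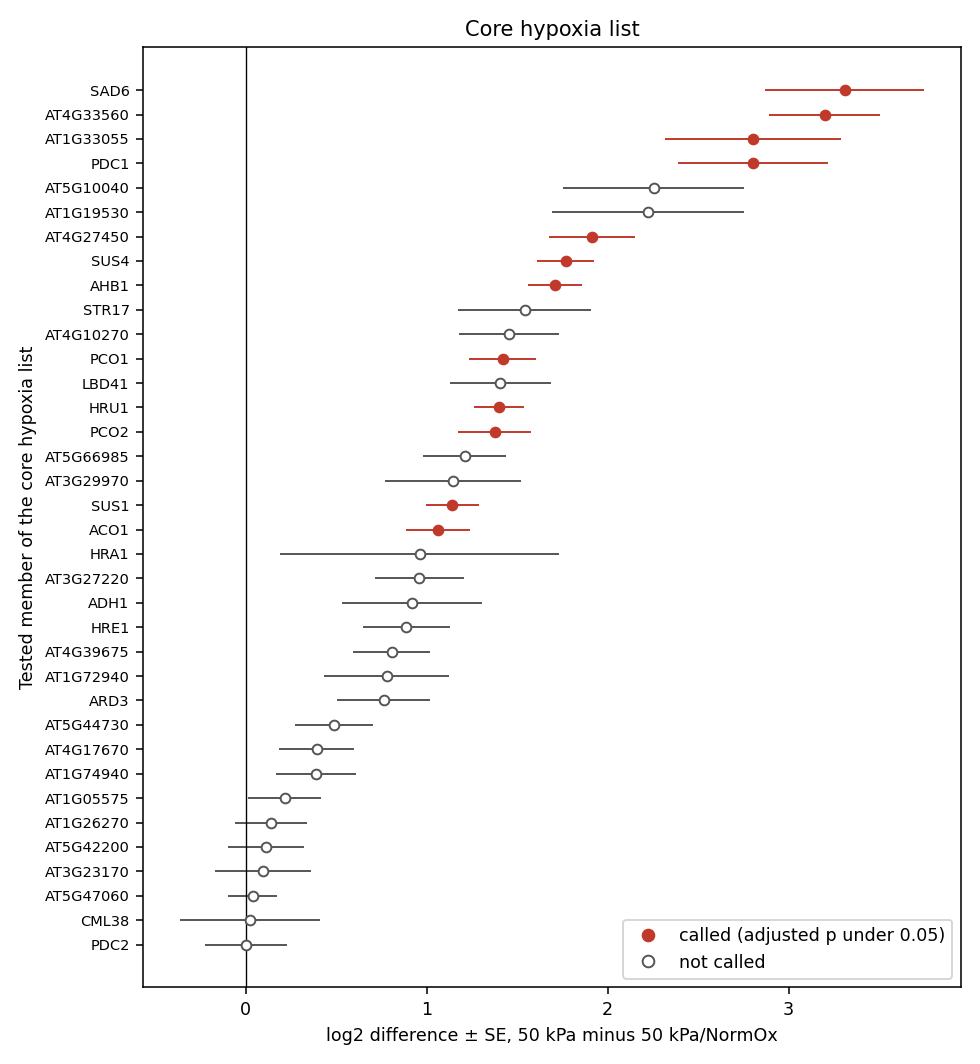
Log2 difference of 50 kPa minus 50 kPa/NormOx with its standard error (x axis) for the 36 tested members of the core hypoxia list (y axis), filled where called. The 12 called members lie between 1.06 and 3.31, and 35 of the 36 lie above 0.

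The 97 kPa arrays were set beside both groups as a reference level. For all 12 called probe sets that were higher at 50 kPa, the 97 kPa mean was nearer to 50 kPa/NormOx, and the 97 kPa arrays overlapped those at 50 kPa for 0 of the 12 and those at 50 kPa/NormOx for 9; in the other 3, SUS1, HRU1 and AHB1, they lay above. Over all 46 probe sets that were higher at the threshold of the methods, the 97 kPa mean was nearer 50 kPa/NormOx for 25 and nearer 50 kPa for 21. The 46 include the 12 called ones, and all 21 were among the 34 that were not called. Outside the calls, more of these probe sets thus lay nearer 50 kPa. Among the 24 that were lower, the 97 kPa mean was nearer 50 kPa/NormOx for 14 and nearer 50 kPa for 10. These counts describe 1 set of 97 kPa arrays and carry no test. The split over all tested probe sets was not counted.

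The 1 called probe set that was lower at 50 kPa, 246379_s_at, matches several genes and names none. Its signals were 14259, 11067 and 10436 at 50 kPa and 21184, 19874 and 19414 at 50 kPa/NormOx, a log2 difference of -0.77 ± 0.13 (adjusted p = 0.0291). The 97 kPa arrays, at 12779, 13620 and 10852, overlapped the arrays at 50 kPa, so that 50 kPa/NormOx was the group set apart. The call was lost under 9 of 20 alternatives, among them the fit of the 6 arrays alone and the fits without 97 kPa replicate 1, 50 kPa replicate 2, 50 kPa replicate 3, 50 kPa/NormOx replicate 1 or 50 kPa/NormOx replicate 3, and over all alternatives its adjusted p reached 0.425. The next probe set by p was also lower, 251840_at, for which no gene is named here, at -0.65 ± 0.12 (adjusted p = 0.0836).

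Among probe sets naming 1 gene and without overlap between groups, none of those with the largest falls was called. At the threshold of the methods, 24 probe sets were lower at 50 kPa (0.152%), and 12 of them had mean signals under 200 in both groups, against 10 of the 46 that were higher (0.291%). PUB25 (AT3G19380), a U-box ubiquitin ligase, had 12.5, 122.3 and 70.0 at 50 kPa against 198.3, 221.7 and 149.6, a log2 difference of -1.98 ± 0.60 (adjusted p = 0.396). AT5G44050, a transporter of the MATE family, had 36.9, 62.6 and 39.6 against 133.1, 181.8 and 127.3 (-1.69 ± 0.48, adjusted p = 0.358). The groups did not overlap for either gene, but the difference of PUB25 became -1.02 without 50 kPa replicate 1. AT1G72240 was brighter and tighter, with 134.8, 129.0 and 149.8 against 335.4, 275.9 and 292.1 (-1.13 ± 0.23, adjusted p = 0.118), and the 97 kPa arrays lay between the groups at 167.4 to 243.5. The rest of the 10 largest falls, AT4G17410, CF9 (AT1G59510), AT3G18170, AT1G23160, AT4G20310, the glutaredoxin ROXY2 (AT5G14070) and the annotated pseudogene AT5G10850, had log2 differences of -1.46 to -1.05 and adjusted p-values of 0.315 to 0.427.

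Photosynthesis genes had differences above 0 throughout, but none of the 16 tested members was called. The list had 50 entries, of which 10 were named through the platform annotation and 6 through the tables for 10 d plants. All 16 differences lay above 0. The median was 0.57 over the 10 and 0.59 over the 16, beside -0.02 over all tested probe sets. The groups overlapped for 14 of the 16. An unadjusted p under 0.05 was reached by 11 of the 16, beside 9.06% of all tested probe sets.

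Replicate 2 was the highest array of its group for nearly every photosynthesis gene. In the 50 kPa/NormOx group this held for 16 of 16 members, against 31.6% of all tested probe sets, and in the 50 kPa group for 15 of 16, against 34.2%. LHCB4.1 (AT5G01530), a minor antenna protein of photosystem II, had signals of 5100, 7302 and 4861 at 50 kPa and of 2526, 5323 and 3038 at 50 kPa/NormOx. Its log2 difference was 0.72 ± 0.23 (adjusted p = 0.409) and became 1.03 without 50 kPa/NormOx replicate 2 (adjusted p = 0.0296). PSAD1 (AT4G02770), a photosystem I subunit, had 2172, 3149 and 2262 against 1035, 2048 and 1181, a log2 difference of 0.88 ± 0.22 (adjusted p = 0.292) that became 1.17 without that array (adjusted p = 0.00718). In total 6 of the 16 members were called without it, PSAD1, LHCB4.1, PSAN, PSBW, PSAL and PORB. RCA (AT2G39730), the activase of Rubisco, overlapped widely, with 3336, 5041 and 2627 against 1480, 5471 and 3114 (0.27 ± 0.34, adjusted p = 0.857, and 0.72 with adjusted p = 0.278 without that array). As that array was the highest of its group for all 16, leaving it out widened each difference by construction. Over the 10 members named through the platform annotation, the median of 0.57 became 0.81 without it. Without 50 kPa replicate 2 instead, the median was 0.48.

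**Figure D4:**
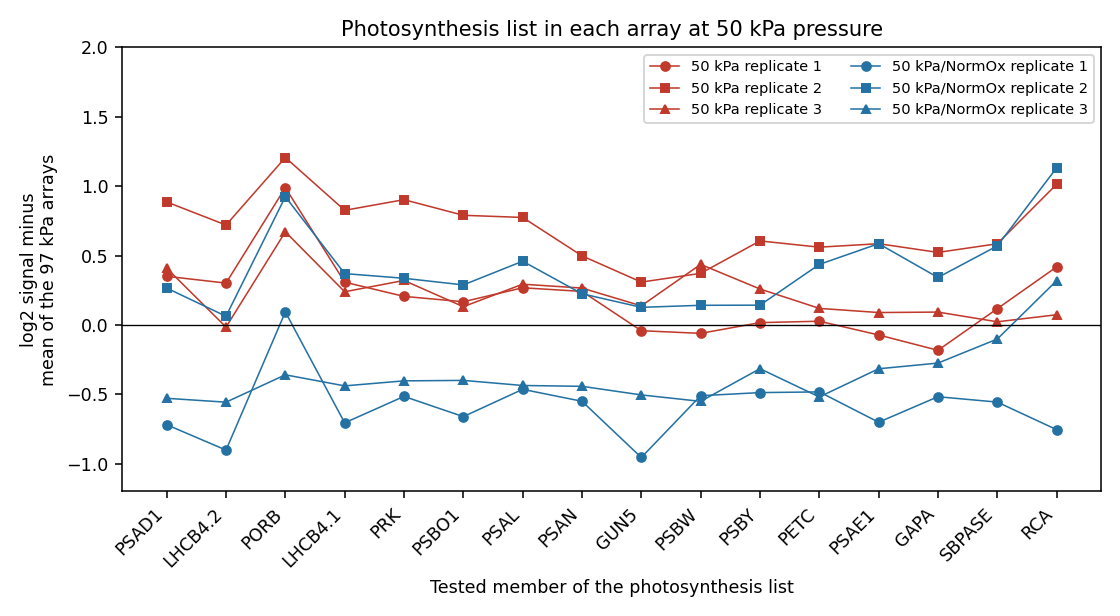
Log2 signal minus the mean of the 97 kPa arrays (y axis) for the 16 tested photosynthesis members (x axis, ordered by log2 difference) in the 6 arrays at 50 kPa pressure, coloured by group with symbols for the replicate number. In both groups the line of replicate 2 runs highest for most genes, and the 50 kPa/NormOx replicate 2 overlaps the arrays at 50 kPa.

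The summed signal of shoot markers was highest in the same arrays. Of 13 markers of leaf and stomatal cells, 6 had a named probe set and 4 were tested. Their summed signal was 4643, 6872 and 3627 at 50 kPa and 2417, 7159 and 3640 at 50 kPa/NormOx, so that replicate 2 was again the highest of each group. RCA, which is also a photosynthesis member, made up most of this sum, and without it the sums were 1307, 1830 and 999.7 at 50 kPa and 937.0, 1688 and 526.4 at 50 kPa/NormOx. STOMAGEN at 50 kPa was highest in replicate 1. The median log2 difference of the 4 was 0.35, and 0.78 without 50 kPa/NormOx replicate 2. The groups overlapped (exact permutation test, two-sided, p = 0.8, where 3 arrays against 3 allow no p below 0.1). Each of the 4 was above 100 in every array of both groups: the peptide STOMAGEN at 283.0 to 938.1, GC1 of guard cells at 138.5 to 727.8, YAB3 of leaf primordia at 104.9 to 265.8 and RCA as above. The median signals of these arrays were 196.1 to 205.9, and without detection calls a signal above 100 does not show that a marker was present. The part of shoot-type transcripts in the photosynthesis differences was not tested. Plastid-encoded probe sets, which were outside the main test, had a median log2 difference of 0.61 over 69 probe sets, 64 of them above 0, and of 0.65 without 50 kPa/NormOx replicate 2. In the alternative fit with organelle probe sets kept, 65 of them were tested, 4 were called higher at 50 kPa and 0 lower.

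Leaving out 50 kPa/NormOx replicate 2 added 81 calls, 68 higher and 13 lower at 50 kPa, of which 39 named 1 gene. None was in the core hypoxia list. AT3G05730, a defensin-like protein, had signals of 1242, 1443 and 1631 at 50 kPa against 302.0, 1125 and 492.4, a log2 difference of 1.38 ± 0.32 (adjusted p = 0.283) that became 1.89 (adjusted p = 0.000549). Its 97 kPa arrays, at 999.4, 1296 and 1305, overlapped 50 kPa and the replicate left out. CWLP (AT3G22120), a proline-rich linker protein of the cell wall, had 6510, 9452 and 6453 against 3047, 5364 and 3066 (1.00 ± 0.20, adjusted p = 0.106, and 1.27 with adjusted p = 0.00201 without that array). AT2G41090, a calmodulin-like protein, had 692.1, 652.4 and 391.2 against 174.4, 412.3 and 105.4 (1.51 ± 0.38, adjusted p = 0.292, and 2.05 with adjusted p = 0.00717). In the other direction AT2G16005 had 4851, 3573 and 6177 against 12960, 6463 and 10760 (-1.02 ± 0.26, adjusted p = 0.292, and -1.31 with adjusted p = 0.0293). In these 4 genes 50 kPa/NormOx replicate 2 was the array of its group nearest to 50 kPa. Their choice favours this, since they were picked for a call gained without that array. CCL, AT4G29030, AT1G62500 and the subtilase SBT1.3, all higher, and AT5G26260, lower, were the others, with PSAD1, among the 10 of smallest p that named 1 gene.

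**Figure D5:**
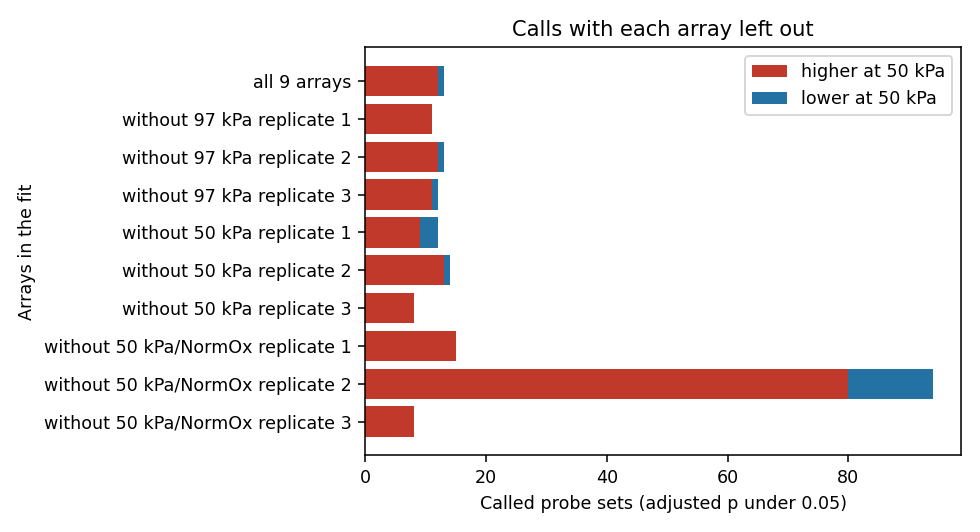
Called probe sets (x axis, number) in the fit of all 9 arrays and with each array left out in turn (y axis), split by direction. Without 50 kPa/NormOx replicate 2 the count is 94, and it lies between 8 and 15 for every other array left out.

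The other lists gave few named probe sets and no calls beyond members of the core hypoxia list. Of 17 reactive oxygen genes 6 were tested, none was called in limma and 2 had an unadjusted p under 0.05. The iron superoxide dismutase FSD1 (AT4G25100) had 10419, 13155 and 10811 at 50 kPa against 7477, 10747 and 7944 (0.41 ± 0.14, adjusted p = 0.432), whereas the copper and zinc enzymes CSD1 (AT1G08830) and CSD2 (AT2G28190) had log2 differences of -0.30 ± 0.11 (adjusted p = 0.473) and -0.21 ± 0.12 (adjusted p = 0.615) with no overlap between groups. These 3 enzymes detoxify superoxide with different metals. NRT1.1 (AT1G12110), a nitrate transporter and sensor, had 1167, 1033 and 1277 against 597.0, 1051 and 818.6 (0.53 ± 0.18, adjusted p = 0.437). Without 50 kPa/NormOx replicate 2 the difference of NRT1.1 was 0.72 (adjusted p = 0.0743), and without replicate 1 it was 0.32. AKINBETA1 (AT5G21170), a subunit of the SnRK1 kinase of sugar starvation, had 478.7, 513.4 and 545.3 against 701.9, 602.6 and 599.3, a log2 difference of -0.31 ± 0.15 (adjusted p = 0.575). Apart from ACO1, 2 of the 25 ethylene entries were tested and neither was called. Of the alternative respiration, heat shock, aquaporin, water deficit, iron and jasmonate lists, 1 to 5 members each were tested, and none was called or had an unadjusted p under 0.05.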

How the data were processed

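Labelled cRNA of 9 root samples was hybridised to Affymetrix ATH1 arrays. The deposited values are MAS5 signal intensities on a linear scale, made by the authors in Affymetrix Expression Console, with each array scaled to a common level; software versions were not given in the sources used here. Such scaling would hide a change in total mRNA, and no detection calls came with the intensities. All 9 sample columns were used. From 22810 probe sets, 64 controls and 148 organelle probe sets (69 named as plastid genes, 79 assigned by runs of probe numbers) were left out, then the dimmest 30% by mean log2 signal, leaving 15818 with a mean signal of at least 66.7.

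Of these, 8685 named 1 gene through the platform annotation, updated through the TAIR10.1 gene table, and 185 through gene tables of the study for 10 d plants; the 2 sources gave the same gene for 216 of 216 probe sets named by both. Other probe sets have no single gene named here. A gene in a list was represented by its brightest probe set. No sequences or coordinates are given.

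Log2 signals were fitted without an offset in limma 3.58.1 (R 4.3.3) over all 9 arrays, with an intensity trend and moderated two-sided tests, where the methods of the study used limma on another normalization. Summaries used Python with pandas and SciPy. Named genes were the called probe sets, the 10 largest rises and falls at the threshold of the methods without overlap between groups, in each list the 4 members, or fewer, of smallest p, hypoxia regulators, and 10 genes called without 50 kPa/NormOx replicate 2. Outside the core hypoxia and photosynthesis lists, values are given for list members with an unadjusted p under 0.05 or no overlap between groups. They are also given for the cell markers, HRA1 and PDC2. Of the core hypoxia and photosynthesis lists, only some of the members that met this rule have their values given. Further core hypoxia members and the probe sets next by p were named after their values were seen. The members and the 18 lists were chosen with earlier results of these data known. Alternatives covered the filter, scaling, offset, variance model, array weights, samples fitted, replicate block, organelle probe sets, thresholds and each array left out. Tubes came from separate chambers, and the p-values measure the spread between such tubes. The number of arrays limits the precision.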

Additional observations from a re-analysis of the deposited data

Results flagged for a closer look

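The spiked-in hybridisation controls, bacterial and phage transcripts that are added to the labelled material and belong to no plant gene, read higher in the 50 kPa/NormOx group than in any array at 97 kPa. Their mean signal was 22268 ± 3945 (SD, n = 3) at 50 kPa/NormOx, 17822 ± 456 at 97 kPa and 17541 ± 2654 at 50 kPa, and the arrays of 50 kPa/NormOx and 50 kPa overlapped (exact permutation test, two-sided, p = 0.2). These probe sets entered no comparison.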

How the results depend on the processing

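The count of 13 calls lay between 10 and 19 under the other filters, scalings, offset, variance options and thresholds and with organelle probe sets kept, except for a fit without the intensity trend (4 calls). It ran from 8 to 94 with 1 array left out, at 8 without 50 kPa replicate 3 and without 50 kPa/NormOx replicate 3. Of the 12 core hypoxia calls, SUS4, AT4G33560, HRU1 and AHB1 were kept under all 20 alternatives. At the threshold of the methods the 70 probe sets became 139 with no filter on dim probe sets, 29 with the dimmest 50% left out and 66 to 201 with 1 array left out, the highest without 50 kPa/NormOx replicate 2; without 50 kPa replicate 1 there were 125. The share of higher ones, 46 of 70, changed to 72 of 139 and 24 of 29 under these filters, to 59 of 125 without 50 kPa replicate 1, to 34 of 67 without 50 kPa replicate 2 and to 155 of 201 without 50 kPa/NormOx replicate 2. The core hypoxia median of 0.88 fell to 0.44 with the dimmest 50% left out, where 16 members were tested, and ran from 0.68 to 1.01 with 1 array left out. The photosynthesis median ran from 0.45 to 0.81.

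With the replicate number as a replicate block the calls rose to 28, 26 higher and 2 lower, and included the 13. The numbers were not shown to pair the samples, since the deviations of same-numbered arrays correlated at -0.03, 0.11 and -0.01.

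Among the genes whose values are given, directions turned for 6 that were not called. PDC2 became 0.0058 with quantile normalization and 0.0214 with arrays divided by their medians, and ran from -0.163 to 0.177 with 1 array left out. In the same fits STOMAGEN ran from -0.0157 to 0.85, RCA from -0.22 to 0.72, YAB3 from -0.10 to 0.56, EXP7 from -0.41 to 0.19 and HRA1 from -0.20 to 1.65. The causes were not tested. Dim probe sets limit what could be seen, since no detection calls were given.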
